A study of Rattus norvegicus with 15 samples.

Results

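The enzymes described here handle arginine and its products. They are argininosuccinate synthase and lyase (Ass1, Asl), both arginases (Arg1, Arg2), the inducible nitric oxide synthase (Nos2), dimethylarginine dimethylaminohydrolase (Ddah1), glycine amidinotransferase (Gatm), ornithine decarboxylase (Odc1), spermidine/spermine acetyltransferase (Sat1) and the diamine oxidase Aoc1. Every probe set, the group of probes that reads 1 transcript, was taken if the table of probe genes gave 1 of these 10 symbols and no other. That made 12 probe sets of 31042 tested, for 10 of 14217 genes. Asl and Gatm have 2 probe sets each and the others have 1.

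The arrays came from 15 kidneys of male rats, and the labels give an age of 10 to 12 weeks. Native, untreated kidneys of 5 Lewis-Brown-Norway (LBN) rats formed the control group (ctr). In the syngeneic group (sTX) the 5 donors and their recipients were LBN rats. In the acute group (aTX) 5 kidneys of LBN donors were placed in Lewis recipients. The recipients had lost both of their own kidneys, immunosuppression was not given, and whole grafts were taken on day 4. The strains follow the study's methods and the series description, whereas the source names of the samples have Lewis rats as donors in both, as recipients in sTX, and LBN rats as recipients in aTX. The titles of sTX 4 and 5 are also contradicted by a treatment label, which reads allogeneic. The summed signal of 9 T cell markers was 295 and 257 in these kidneys, inside the range of the other syngeneic grafts (244 to 440) and below all aTX kidneys (2766 to 4412). The series description makes each control the other kidney of a donor, so some controls and grafts may come from 1 animal, and which ones was not known here. p-values measure the spread between kidneys.

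In the kidney, proximal tubule cells take up citrulline and convert it with Ass1 and Asl into arginine, which is released to the body. Arginase splits arginine into urea and ornithine, Nos2 turns it into nitric oxide, and Gatm uses it for the first step of creatine synthesis, a pathway in which the kidney is a main supplier. Ornithine enters the polyamines through Odc1. Sat1 acetylates spermidine and spermine so that they can be exported or broken down, and Aoc1 oxidises putrescine and histamine. Ddah1 degrades methylated arginines that inhibit nitric oxide synthases.

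Signals below are the deposited MAS5 intensities on a linear scale, where each array has a mean of 100 once 2% of probe sets are trimmed at either end. The median signal of an array lay between 24.3 and 30, so a signal well under that is dim and its fold change is uncertain in size. Groups are given as mean ± SD with n = 5, folds are ratios of geometric means, and a gene is called higher or lower when limma's p, adjusted over all 31042 probe sets, is below 0.05. Levels of different probe sets are not compared with each other. By the clock times of the hybridization entry in their instrument records, read without the date, the arrays fell into 2 runs. These runs are called wash runs here, although that entry names no wash. The first held all 5 controls with aTX 2, 3 and 4, and the other held all 5 sTX arrays with aTX 1 and 5, so that no run holds both controls and syngeneic grafts.

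In acute rejection most of these enzymes were down-regulated, while Arg1 and Aoc1 were strongly up-regulated. Against the control group, 8 of the 12 probe sets were lower in aTX (Ass1, Arg2, Odc1, Ddah1 and both probe sets of Asl and of Gatm), 3 were higher (Arg1, Sat1, Aoc1) and Nos2 was not called. Over all probe sets of the array 22.2% were lower and 20.2% higher in this comparison, beside 66.7% and 25% of the members. The members were chosen with earlier results of these data known. All probe sets were not matched to them by signal, so these shares are no test of the members. The median log2 change was -0.8 for the members and -0.07 for all probe sets. After syngeneic transplantation 3 member probe sets were lower (1 of Asl, Arg2 and Odc1) and 1 was higher (Aoc1), against 6.32% and 11.4% of all probe sets. No run holds both of these groups, and in a fit with a block for wash run 1 member was lower (Odc1) and 0 were higher, against 0.821% and 2.3% of all probe sets. Between the graft groups, 5 were lower in aTX (both of Asl, Arg2, Gatm 1367627_at and Ddah1) and 3 were higher (Arg1, Sat1, Aoc1), against 22.1% and 13.9% of all probe sets. The comparisons share their control or graft arrays. Within the run of the controls, 3 members were higher and 7 lower in aTX (17.1% and 19.4% of all probe sets), with log2 changes of 2.82 for Arg1, 4.84 for Aoc1, -1.24 for Arg2, -1.2 for Ddah1, -0.95 for Gatm 1367627_at, -0.9 for Asl 1367754_s_at and -0.88 for Odc1. Within the run of the syngeneic grafts, 3 were higher and 7 lower in aTX than in sTX (11.6% and 16.5% of all probe sets).

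**Figure D1:**
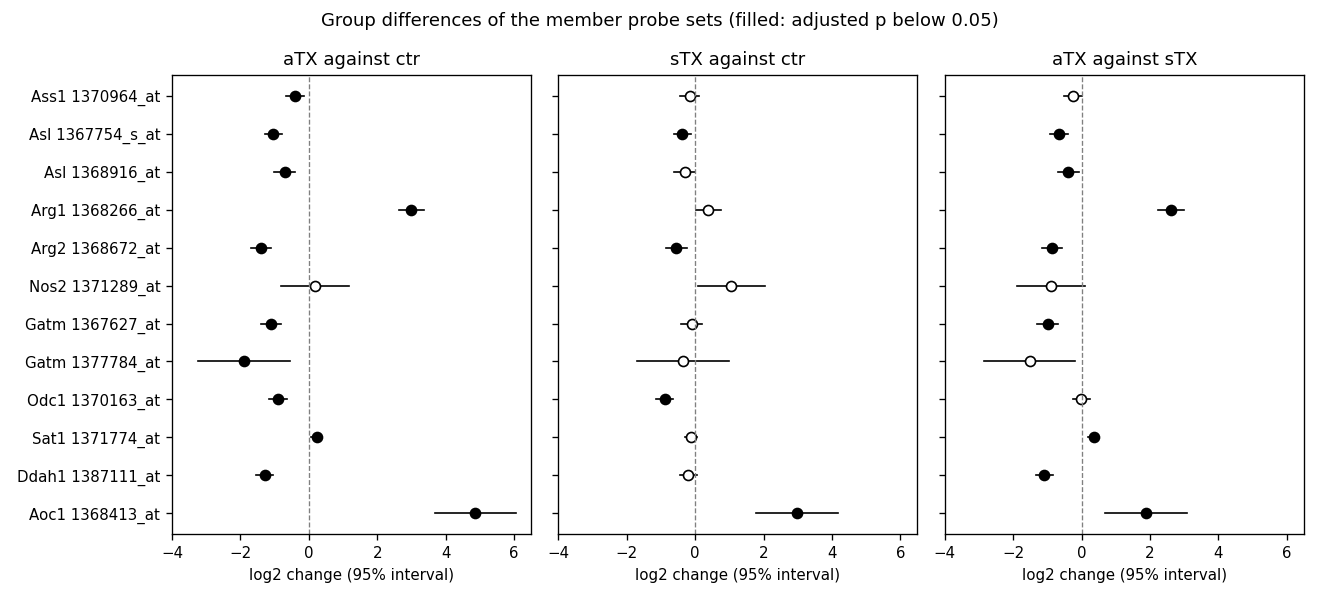
Log2 change of each member probe set in 3 comparisons, with the 95% interval from limma; filled points have an adjusted p below 0.05. Arg1 and Aoc1 stand to the right in aTX, at 3 and 4.87 against ctr, while Arg2, Ddah1 and Gatm 1367627_at stand between -1.4 and -1.1.

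Promoter windows are shown for members of each pattern: Aoc1, with the largest rise in both graft groups, Sat1, with a small rise in aTX, Gatm, which fell in aTX, and Odc1, which fell in both graft groups. Each is the 250 bases before the annotated start, read on the strand of the gene, from RefSeq on the GRCr8 build. The table held 7 of the 10 members and did not list Arg1, Arg2 and Nos2. Capitals mark matches, on either strand, to 9 short motifs that were searched, which were the TATA box TATAAA, the E-box CACGTG, the cAMP response element TGACGTCA, the STAT motif TTCNNNGAA, the antioxidant response core TGACNNNGC, the GC box GGGCGG, the CCAAT box, the hypoxia response core TACGTG and the HNF1 motif GTTAAT.
Aoc1 (chr4:79142876-79143125, + strand): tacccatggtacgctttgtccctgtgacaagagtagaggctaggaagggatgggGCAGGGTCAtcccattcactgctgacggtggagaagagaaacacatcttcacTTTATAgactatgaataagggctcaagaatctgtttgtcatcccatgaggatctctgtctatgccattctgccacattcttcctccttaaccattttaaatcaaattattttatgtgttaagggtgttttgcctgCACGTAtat
Sat1 (chrX:44007839-44008088, + strand): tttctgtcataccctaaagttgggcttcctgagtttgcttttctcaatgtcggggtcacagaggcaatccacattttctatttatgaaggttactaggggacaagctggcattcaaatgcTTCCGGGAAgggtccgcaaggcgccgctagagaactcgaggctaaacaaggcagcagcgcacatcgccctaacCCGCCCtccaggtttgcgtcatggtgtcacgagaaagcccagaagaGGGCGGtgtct
Gatm (chr3:130129094-130129343, - strand): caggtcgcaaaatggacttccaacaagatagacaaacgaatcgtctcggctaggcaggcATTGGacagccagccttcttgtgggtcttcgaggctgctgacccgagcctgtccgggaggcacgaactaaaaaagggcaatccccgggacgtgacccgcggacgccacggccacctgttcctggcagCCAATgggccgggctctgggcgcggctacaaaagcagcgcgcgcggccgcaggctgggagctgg
Odc1 (chr6:46058415-46058664, + strand): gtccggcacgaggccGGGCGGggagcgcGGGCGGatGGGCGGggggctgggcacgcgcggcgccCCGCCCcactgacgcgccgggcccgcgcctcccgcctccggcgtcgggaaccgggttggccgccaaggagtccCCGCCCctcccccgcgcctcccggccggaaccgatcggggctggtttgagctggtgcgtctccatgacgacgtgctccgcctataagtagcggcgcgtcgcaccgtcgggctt
The Aoc1 window has the lowest GC content of the 7, 43.2%, and holds the TATA box 144 bases before the start, the antioxidant response core at 196 and the hypoxia response core at 9. These letters occur in 12.9%, 10.1% and 2.95% of all 33469 windows. Sat1 holds the STAT motif at 130 (7.67% of all windows) and the GC box at 57 and 11. Gatm holds the CCAAT box at 191 and 64 (34% of all windows). Odc1, with 78% GC, holds the GC box 5 times, at 235, 222, 214, 186 and 113, and this motif is found in 30.5% of all windows. The matches are descriptions of the letters and not of bound sites.

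Starting with the synthesis of arginine, Asl was clearly lower in the rejecting grafts and Ass1 only slightly so. Signals of Asl 1367754_s_at were 989, 1028, 628, 1008 and 1019 in the controls, 720, 716, 629, 770 and 711 in sTX, and 375, 463, 494, 517 and 397 in aTX. All aTX kidneys lay below all others, and control 3 lay at the level of the lowest syngeneic graft. The means were 934 ± 172, 709 ± 50.9 and 449 ± 61.1. Asl fell by 1.04 ± 0.12 (log2, SE) in aTX against ctr, which is 2.06-fold lower (adjusted p = 4.19e-07), and was 1.59-fold lower than in sTX (adjusted p = 0.000154). In sTX against ctr it was 1.3-fold lower (adjusted p = 0.0348), a call that did not hold with the wash run as a block (log2 change -0.03, adjusted p = 0.967). The call was also lost without any 1 of controls 1, 2, 4 and 5 or of sTX 1, 2, 3 and 5 (log2 change -0.33 to -0.38, adjusted p = 0.0554 to 0.0893). Without control 3 the change was -0.51 (adjusted p = 0.00029).

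The other Asl probe set, 1368916_at, read 675, 671, 329, 641 and 729 in the controls, 487, 483, 431, 503 and 464 in sTX, and 320, 375, 362, 373 and 375 in aTX. Control 3 was again far below the other controls and was the only control inside the range of aTX. The fall in aTX against ctr was 0.7 ± 0.15 (log2, SE), or 1.63-fold (adjusted p = 0.000584). It was also lower than in sTX by 1.31-fold (adjusted p = 0.0466), with no overlap. With a block for wash run the log2 change was -0.45 (adjusted p = 0.114), and within 1 run it was -0.45 with the call kept (adjusted p = 0.00373). Leaving out any 1 aTX array, control 2 or 4, or sTX 1, 2, 4 or 5 gave -0.35 to -0.41 (adjusted p = 0.0504 to 0.102). The change in sTX against ctr was -0.31 (adjusted p = 0.171) and, without control 3, -0.52 (adjusted p = 1.88e-05). With the wash run as a block, that change was -0.22 (adjusted p = 0.773).

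For Ass1 the signals were 4213, 3885, 3069, 4683 and 4735 in the controls, 3569, 4359, 3041, 3544 and 3757 in sTX, and 2449, 3570, 3527, 3231 and 2696 in aTX. The 3 groups overlapped, and the lowest aTX kidneys were those of the run that held the syngeneic grafts. The level of 3095 ± 502 in aTX was 1.33-fold lower than the 4117 ± 682 of ctr (adjusted p = 0.014). With the wash run as a block this was a log2 change of -0.24 (adjusted p = 0.16), and within the run of the controls also -0.24 (adjusted p = 0.173). Against sTX the change was -0.25 (adjusted p = 0.156) over all arrays and -0.5 within the other run (adjusted p = 0.0164).

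**Figure D2:**
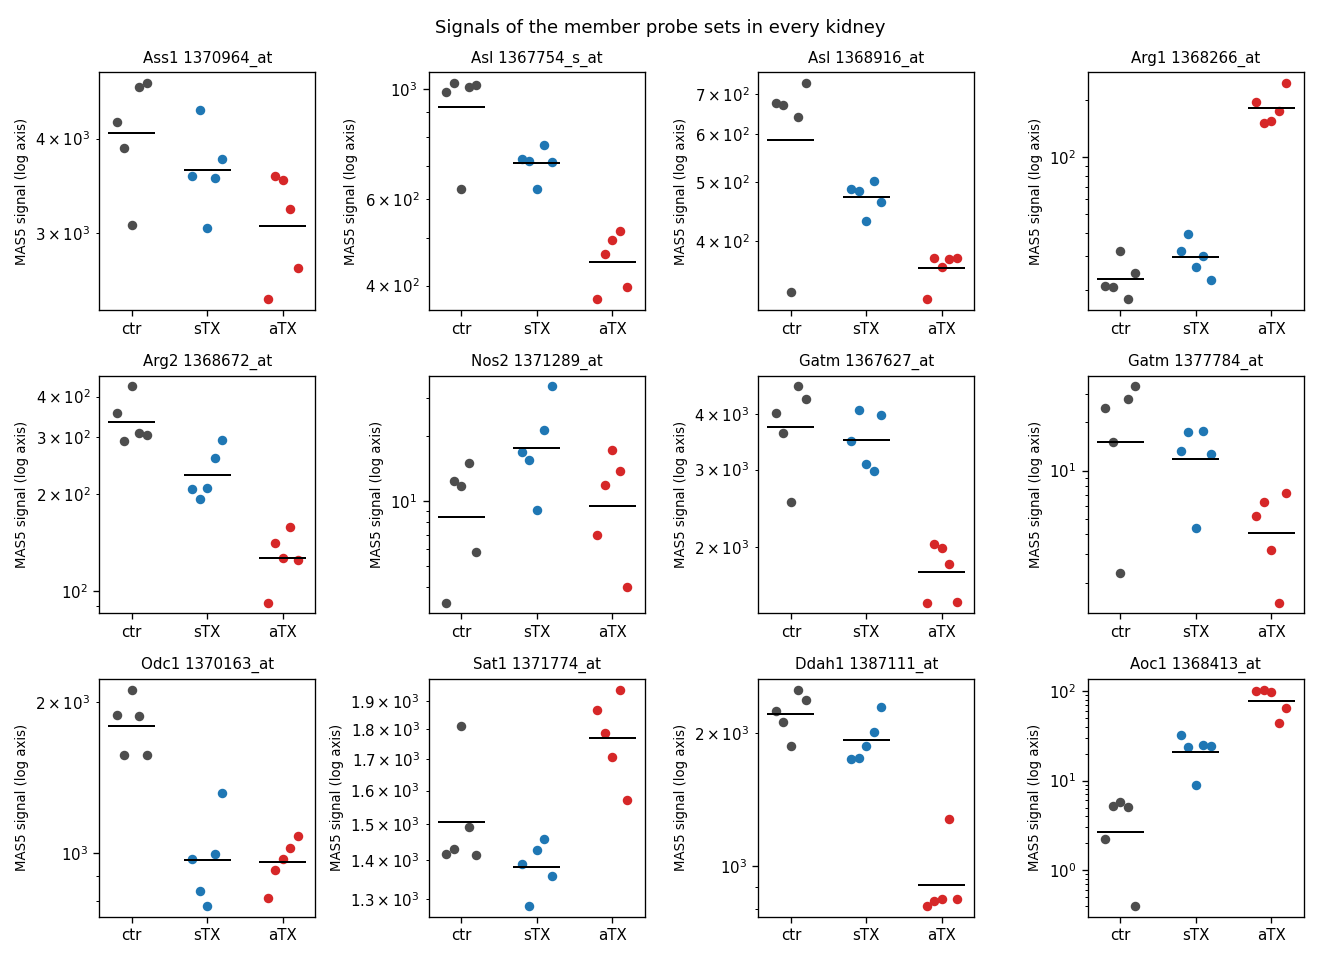
MAS5 signal of each member probe set in every kidney (log axis, a range of its own in each panel), with replicates 1 to 5 from left to right in each group and a bar at the geometric mean. All 5 aTX kidneys stand above all others for Arg1 and Aoc1 and below all others for Arg2, Ddah1, Gatm 1367627_at and Asl 1367754_s_at.

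The arginases moved in opposite directions in the acute group. Arg1, the cytosolic enzyme known from liver and from activated macrophages, was 20.9, 20.7, 32, 17.8 and 24.4 in the controls, 32.1, 39.4, 26.5, 30 and 22.6 in sTX, and 196, 152, 156, 175 and 245 in aTX. Every aTX kidney was far above the other 10. The rise in aTX against ctr was 3 ± 0.18 (log2, SE; 95% interval 2.63 to 3.37), or 8.02-fold (adjusted p = 2.50e-11), and against sTX 6.14-fold (adjusted p = 4.32e-10). In sTX the level of 30.1 ± 6.32 was close to the array median and overlapped that of ctr, 23.2 ± 5.47. The log2 change was 0.38 (adjusted p = 0.154), and 0.51 without control 3 (adjusted p = 0.0449). With the wash run as a block, the change in sTX against ctr was -0.07 (adjusted p = 0.95).

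Arg2, the mitochondrial arginase of the proximal straight tubule, was lower in both graft groups. It read 357, 293, 430, 309 and 304 in the controls, 207, 193, 209, 259 and 295 in sTX, and 92.2, 141, 126, 158 and 125 in aTX. Acute and control kidneys did not overlap, and the highest syngeneic graft reached the lowest control. From 338 ± 57 in ctr, Arg2 was 2.65-fold lower in aTX (log2 change -1.4 ± 0.14, adjusted p = 5.76e-08) and 1.46-fold lower in sTX (adjusted p = 0.00951). The fall was larger in aTX, by 1.81-fold against sTX (adjusted p = 5.21e-05). With the wash run as a block, the change in sTX against ctr was -0.15 (adjusted p = 0.833).

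Other genes of the urea cycle and of arginine and ornithine metabolism changed in both directions. Of 16 measured genes of a list of 20, 3 were higher and 8 lower in aTX against ctr, counting a gene with any called probe set, with a median log2 change over their probe sets of -0.39. By probe set, 4 of 27 were higher and 13 lower, beside 20.2% and 22.2% of all probe sets. No share of all genes was computed for the gene counts of the lists. All list genes, here and below, were read from the fit without a block for wash run. No run holds both ctr and sTX, so in that fit their difference cannot be told apart from a run difference. The 3 genes that were higher were Slc7a1, Aldh18a1 and Aldh4a1 (the last named because the count is small, after its values were seen). For Aldh4a1 the rise was small (log2 change 0.19, adjusted p = 0.0419), and in sTX against ctr it was lower (-0.24, adjusted p = 0.025). Slc7a1, a carrier that brings arginine into cells, rose from 49.5 ± 5.71 to 147 ± 10.1 on 1368391_at (log2 change 1.58, adjusted p = 1.25e-10), and 1 of its other 2 probe sets also rose. Aldh18a1, which makes the common precursor of proline and ornithine from glutamate, rose from 58.6 ± 4.08 to 182 ± 14.8 (log2 change 1.63, adjusted p = 1.25e-11). It was also higher in sTX, at 86.6 ± 9.18 (adjusted p = 0.000205).

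Prodh, the enzyme that starts proline breakdown, fell from 236 ± 41.4 in ctr to 119 ± 21.3 in sTX and 74.1 ± 11.3 in aTX (log2 change in aTX -1.66, adjusted p = 5.81e-09). Slc25a15, the mitochondrial ornithine carrier, was lower in aTX on 5 of 6 probe sets. On 1393342_at it went from 469 ± 61.4 in ctr to 174 ± 21.2 in aTX (log2 change -1.43, adjusted p = 7.23e-11). In sTX against ctr 3 genes of the list were higher and 6 lower (median -0.22), and in aTX against sTX 3 were higher and 7 lower (median -0.43). Of the 27 probe sets, 4 were higher and 8 lower in sTX against ctr (11.4% and 6.32% of all probe sets). In aTX against sTX these were 4 and 13 (13.9% and 22.1%).

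For nitric oxide synthesis the single-symbol probe set of Nos2, 1371289_at, was dim. Its signals were 3.4, 12.4, 11.7, 14.9 and 5.8 in the controls, 16.9, 15.4, 9.1, 21.3 and 33.8 in sTX, and 7, 11.8, 17.2, 13.8 and 4 in aTX. All but 1 of these 15 values lay below every array's median, and the groups overlapped. The log2 change was 0.18 ± 0.47 (SE) in aTX against ctr (adjusted p = 0.81), 1.06 in sTX against ctr (adjusted p = 0.137) and -0.89 in aTX against sTX (adjusted p = 0.162). Within the run that holds sTX and 2 aTX arrays, the last was -1.74 (adjusted p = 0.0239).

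Another probe set, 1387667_at, is listed under both Nos2 and the pseudogene Nos2-ps1 and was therefore no member. It read 0.5, 4.2, 7.3, 11.8 and 0.6 in the controls, 1.3, 7.2, 1.9, 0.4 and 1.9 in sTX, and 113, 145, 139, 188 and 163 in aTX. The signal was near 0 in all native and syngeneic kidneys and present in all 5 rejecting grafts. Its log2 change in aTX against ctr was 5.85 ± 0.8 (SE; adjusted p = 3.80e-06), with a fold that is uncertain because the denominator is dim. Which of the 2 genes it reads cannot be told apart here, and its course differs from that of 1371289_at.

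Ddah1 was down-regulated in rejection with only a small difference after syngeneic transplantation. It read 2244, 2120, 1870, 2514 and 2379 in the controls, 1750, 1759, 1878, 2015 and 2301 in sTX, and 815, 836, 844, 1281 and 845 in aTX. All aTX kidneys lay below the rest, with aTX 4 well above the other 4. Ddah1 was 2.44-fold lower in aTX than in ctr (log2 change -1.28 ± 0.12, adjusted p = 1.38e-08) and 2.12-fold lower than in sTX (adjusted p = 2.76e-07). In sTX against ctr the change was -0.2 (adjusted p = 0.283). When arrays were centred on their medians, which takes 0.19 (log2) off every change in sTX against ctr and 0.07 off those in aTX, it was -0.39 (adjusted p = 0.0197). With the wash run as a block, the change in sTX against ctr was 0.02 (adjusted p = 0.975).

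Among 13 measured genes of a list of 16 for nitric oxide synthases, their cofactor tetrahydrobiopterin and methylarginine metabolism, 4 were higher and 6 lower in aTX against ctr (median log2 change -0.14). By probe set, 5 of 14 were higher and 6 lower, beside 20.2% and 22.2% of all probe sets. Gch1, the rate-limiting enzyme of tetrahydrobiopterin synthesis, was 12 ± 4.31 in ctr, 20.6 ± 5.17 in sTX and 183 ± 22.6 in aTX on 1387221_at. It rose by 4.01 (log2) in aTX (adjusted p = 2.72e-11) and by 0.83 in sTX (adjusted p = 0.0197), and its other probe set was called higher in both. The other 3 that were higher were Carm1, Prmt5 and Nosip, named after their values were seen, with log2 changes of 0.91, 0.31 and 0.32.

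Gchfr, which restrains Gch1, fell in the same grafts from 525 ± 20.1 to 218 ± 21.4 (log2 change -1.28, adjusted p = 3.39e-11). Ddah2, the relative of Ddah1, fell from 113 ± 19.7 to 48.5 ± 11.6 (-1.24, adjusted p = 3.89e-07). Qdpr, which regenerates tetrahydrobiopterin, was 2035 ± 127 in ctr, 1539 ± 85.3 in sTX and 952 ± 77.9 in aTX (-1.1 in aTX, adjusted p = 9.57e-11). The constitutive synthases Nos1 and Nos3, named outside the rule, were dim, with means of 12.6 ± 4.23 and 22.6 ± 3.06 in ctr, and were not called. In sTX against ctr 2 genes of this list were higher and 2 lower (median 0), and in aTX against sTX 3 were higher and 5 lower (median 0.02). Of the 14 probe sets, 3 were higher and 2 lower in sTX against ctr (11.4% and 6.32% of all probe sets). In aTX against sTX these were 4 and 5 (13.9% and 22.1%).

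**Figure D3:**
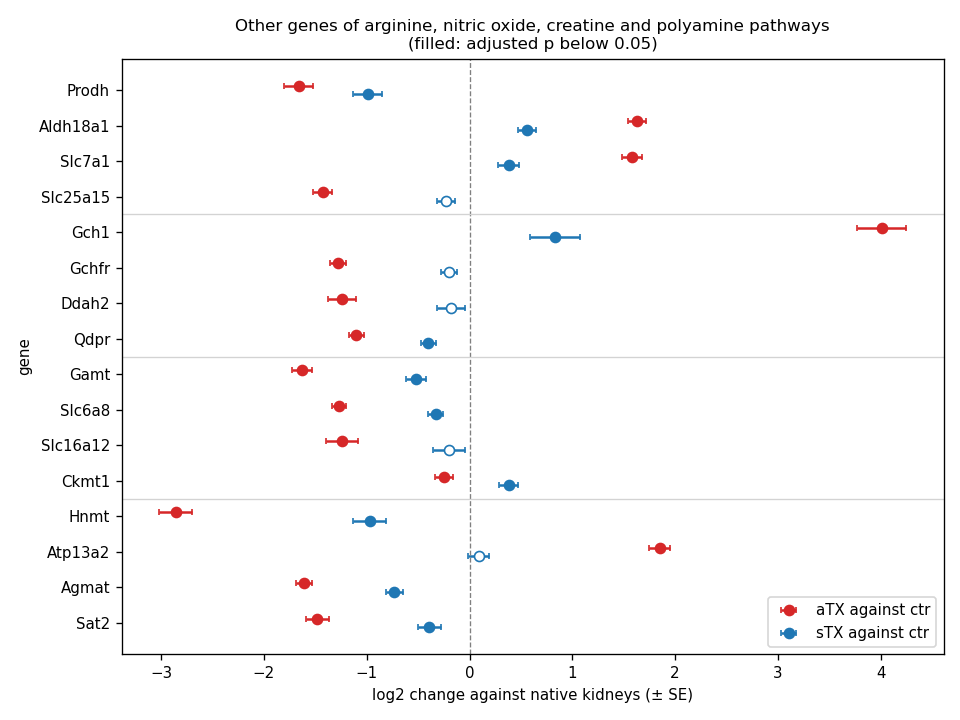
Log2 change against native kidneys (± SE) of up to 4 genes per pathway list, from top to bottom urea cycle and ornithine, nitric oxide, creatine, and polyamine genes; filled points have an adjusted p below 0.05. Gch1 stands farthest right in aTX at 4.01 and Hnmt farthest left at -2.86, and both are nearer to 0 in sTX, at 0.83 and -0.97.

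Gatm and 4 of 7 other measured creatine genes were lower in rejection. Gatm, whose product guanidinoacetate is the precursor of creatine, read 4039, 3638, 2529, 4631 and 4331 in the controls, 3484, 4104, 3087, 2985 and 3978 in sTX, and 1499, 2031, 1991, 1832 and 1505 in aTX on 1367627_at. Control 3 was the lowest native kidney and still above all aTX kidneys. From 3833 ± 817 in ctr and 3528 ± 507 in sTX, the level of 1772 ± 257 in aTX was 2.14-fold (log2 change -1.1 ± 0.14, adjusted p = 2.16e-06) and 1.99-fold lower (adjusted p = 1.16e-05). The difference between sTX and ctr was -0.1 with a 95% interval of -0.4 to 0.2 (adjusted p = 0.707).

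The other Gatm probe set, 1377784_at, was dim, at 20.7 ± 12.3 in ctr, 13.1 ± 5.33 in sTX and 4.7 ± 2.34 in aTX, and overlapped between aTX and ctr. Its log2 change of -1.89 ± 0.64 (SE) was called in aTX against ctr (adjusted p = 0.0218), but not by an exact permutation test of its log2 signals (2-sided p = 0.0556, unadjusted). The call was also lost without any 1 of controls 1, 4 and 5 or aTX 4 (-1.52 to -1.71, adjusted p = 0.0568 to 0.0666), and without control 3 the change was -2.57. Against sTX the change was -1.52 (adjusted p = 0.0717), and it was called without control 3 (adjusted p = 0.0143) or without sTX 3 (-1.88, adjusted p = 0.0308).

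Further along the same pathway, Gamt, which methylates guanidinoacetate to creatine, fell from 654 ± 41.2 in ctr to 458 ± 58.9 in sTX (log2 change -0.52, adjusted p = 0.000752) and to 212 ± 29.3 in aTX (-1.63, adjusted p = 3.08e-11). The creatine transporter Slc6a8 fell from 1514 ± 100 to 1207 ± 54.8 in sTX and 626 ± 47.4 in aTX on 1386934_at (-1.27 in aTX, adjusted p = 5.88e-12). Slc16a12, which also carries creatine, fell from 651 ± 166 to 269 ± 36.3 in aTX on 1393516_at (-1.24, adjusted p = 2.74e-06). Ckmt1, a mitochondrial creatine kinase, differed from these, with 370 ± 63.8 in ctr, 476 ± 38.6 in sTX and 308 ± 20.6 in aTX. In the fit without a block for wash run, Ckmt1 was higher in sTX (0.38, adjusted p = 0.00672) and lower in aTX (-0.25, adjusted p = 0.0321). These were the 4 genes lower in aTX of 7 measured (of 9 listed), with 0 higher and a median log2 change of -0.98. By probe set, 6 of 9 were lower and 0 higher, beside 22.2% and 20.2% of all probe sets. Of the creatine kinases not called, named outside the rule, Ckb was 436 ± 110 in ctr, 504 ± 42.7 in sTX and 488 ± 48 in aTX (0.19 in aTX, adjusted p = 0.244), and Ckm and Ckmt2 were dim. In aTX against sTX 5 genes were lower and 0 higher, the fifth being Ckm. Here 7 of the 9 probe sets were lower, beside 22.1% of all probe sets.

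For the polyamines, Odc1, the rate-limiting enzyme of their synthesis, was lower in both graft groups. It read 1884, 1567, 2122, 1877 and 1568 in the controls, 974.8, 840, 785, 995 and 1319 in sTX, and 814, 923, 972.6, 1024 and 1084 in aTX. No graft of either kind reached the lowest control, and the graft groups overlapped. Odc1 was 1.87-fold lower in aTX (log2 change -0.9 ± 0.12, adjusted p = 2.92e-06) and 1.85-fold lower in sTX (adjusted p = 2.53e-05). The difference between aTX and sTX was -0.01 with a 95% interval of -0.26 to 0.24. With the wash run as a block, the change in sTX against ctr was -0.84 (adjusted p = 0.0395).

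Sat1 was slightly higher in rejection. The signals were 1417, 1430, 1812, 1492 and 1414 in the controls, 1389, 1283, 1428, 1458 and 1359 in sTX, and 1866, 1786, 1707, 1941 and 1570 in aTX. All aTX kidneys lay above all syngeneic grafts and above 4 of the 5 controls, and control 3 lay inside the range of aTX. The level of 1774 ± 144 was 1.28-fold above the 1384 ± 67.6 of sTX (adjusted p = 0.00105) and 1.17-fold above the 1513 ± 170 of ctr (log2 change 0.23 ± 0.08, adjusted p = 0.0208). Against ctr the call was lost without any 1 of aTX 4 and controls 1, 2 and 5 (log2 change 0.2 to 0.21, adjusted p = 0.0517 to 0.061). Without control 3 the change was 0.3 (adjusted p = 0.00141). It was not called after median centring (0.16, adjusted p = 0.149), where Sat1 was lower in sTX than in ctr (-0.32, adjusted p = 0.0094). With the wash run as a block, the change in sTX against ctr was -0.04 (adjusted p = 0.926).

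Aoc1 showed the largest change of the members and was up-regulated in both graft groups. This is the gene also known as amiloride binding protein 1, which the study itself singled out as a candidate marker from these arrays. It read 2.2, 5.2, 5.7, 5.1 and 0.4 in the controls, 32, 23.9, 9, 24.8 and 24.3 in sTX, and 101, 104, 97.8, 43.8 and 63.8 in aTX. The 3 groups did not overlap. Every control, and every syngeneic graft except sTX 1, was below the median of its array. The log2 change was 4.87 ± 0.57 (SE) in aTX against ctr (adjusted p = 5.01e-07) and 2.99 in sTX against ctr (adjusted p = 0.000861).

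As fitted, these are 29.3-fold and 7.92-fold, and both depend on dim control signals, the latter also on mostly dim syngeneic signals. Without control 5, at 0.4, the log2 changes were 4.19 and 2.3. With 16 added to every signal before the logarithm they were 2.27 (adjusted p = 9.23e-09) and 0.95 (adjusted p = 0.00161). The acute group was 3.7-fold above the syngeneic group (log2 change 1.89, adjusted p = 0.0126), a ratio with a mostly dim denominator. With 16 added, this log2 change was 1.32 (adjusted p = 1.75e-05). With the wash run as a block, that difference was 1.93 (adjusted p = 0.0742) and within 1 run 1.93 (adjusted p = 0.00458), while sTX against ctr was 2.91 (adjusted p = 0.152).

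Of 23 measured polyamine and related amine genes (26 listed), 7 were higher and 9 lower in aTX against ctr, with a median log2 change of -0.03. By probe set, 7 of 33 were higher and 11 lower, beside 20.2% and 22.2% of all probe sets. Hnmt, which inactivates histamine by methylation, fell from 1424 ± 93.8 in ctr to 736 ± 137 in sTX and 203 ± 51.9 in aTX on 1387382_at (log2 change in aTX -2.86, adjusted p = 1.10e-11). Atp13a2, a lysosomal polyamine exporter, rose in aTX from 71.2 ± 13.2 to 254 ± 12.7 (1.85, adjusted p = 9.01e-12) and was 74.6 ± 3.83 in sTX. Agmat, named for the conversion of agmatine to putrescine, fell from 1099 ± 49.8 to 666 ± 63.8 in sTX and 362 ± 43.4 in aTX (-1.61, adjusted p = 3.69e-12). Sat2, a relative of Sat1, fell from 517 ± 82.6 to 184 ± 22.4 in aTX (-1.48, adjusted p = 4.36e-10). In sTX against ctr 4 of these genes were higher and 6 lower (median 0.02), and in aTX against sTX 7 were higher and 8 lower (median -0.04). Of the 33 probe sets, 5 were higher and 6 lower in sTX against ctr (11.4% and 6.32% of all probe sets). In aTX against sTX these were 7 and 10 (13.9% and 22.1%).

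Control 3 stood apart in the member genes. It was the lowest or the highest of the 5 controls on 11 of 12 member probe sets, while the other controls were so on 1, 3, 4 and 5. Over all 31042 probe sets control 3 was at an extreme on 47.2%, and the others on 34.5 to 39.9%. Its median absolute deviation from the mean of the other controls was 0.6 (log2) over the members, and that of the others 0.13 to 0.25. Asl, Ass1, Gatm and Ddah1 were low in it, and Arg1, Arg2, Odc1 and Sat1 were high. For the dim Aoc1 its 5.7 was barely above the 5.2 and 5.1 of controls 2 and 4. Of the controls it had the lowest summed marker signal of proximal tubule (25424), of endothelium (1595) and of erythroid cells and platelets (1467). It had the highest of T cells (261, with 144 to 192 in the others) and of neutrophils (34.1, with 27.2 in control 1). Its sums for macrophages (2418) and for thick limb, distal tubule and collecting duct (12705) were highest by little. Control 4 had 2360 for macrophages, and control 5 had 12679 for the latter list. The part of these values in its deviation was not tested. Without it, the members counted 3 higher and 8 lower in aTX against ctr, 2 and 4 in sTX against ctr, and 3 and 6 in aTX against sTX.

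**Figure D4:**
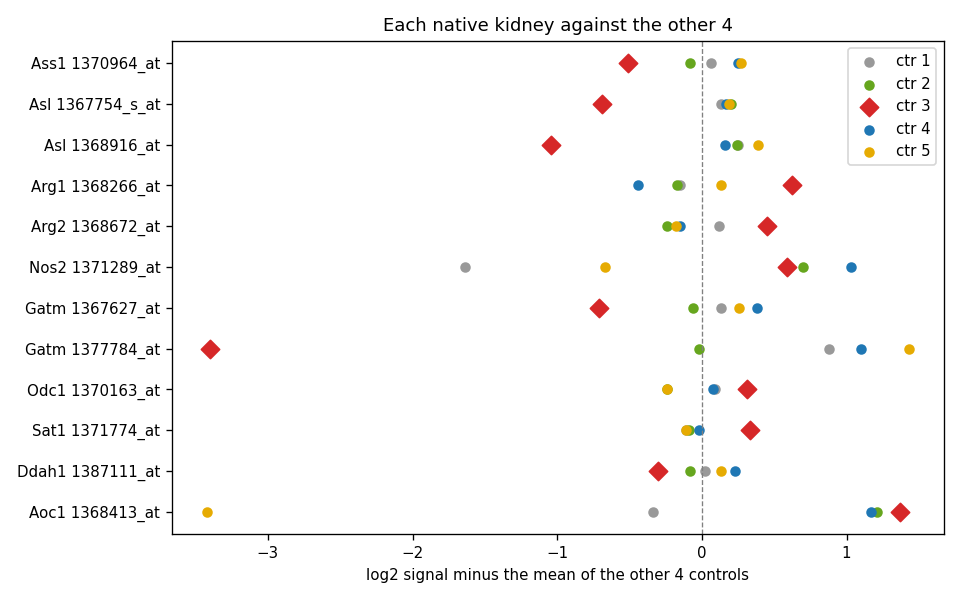
Log2 signal of each native kidney minus the mean of the other 4, for every member probe set. Control 3 (diamonds) is at the edge on all rows except Nos2, from -3.4 for the dim Gatm 1377784_at to 1.37 for Aoc1, which has control 5 at the other edge.

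Markers of several cell types moved with these changes. All 12 proximal tubule markers were lower in aTX than in ctr, with a median log2 change of -1.25. Their summed signal was 25424 to 34236 in ctr, 23448 to 27656 in sTX and 11949 to 16363 in aTX, beside the falls of Asl, Arg2, Gatm and Ddah1. All 8 markers of thick limb, distal tubule and collecting duct, all 4 of podocytes and all 5 of endothelium were lower as well. Over all probe sets 22.2% were lower and 20.2% higher in this comparison. No share of all genes was computed for the marker counts. The macrophage and monocyte markers were higher in 10 of 10 (median 3.75), with sums of 1842 to 2418 in ctr, 3108 to 4509 in sTX and 8344 to 10996 in aTX, beside the rise of Arg1.

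T cell markers were higher in 9 of 9, with sums of 144 to 261, 244 to 440 and 2766 to 4412. Neutrophil markers were higher in 5 of 5, with sums of 20 to 34.1, 34.3 to 141 and 270 to 586. Of these, Cxcr2 and Mmp8 had means over all 15 arrays below the median signal. None of 4 erythroid and platelet markers was called in aTX against ctr. In sTX against ctr 9 of 10 macrophage markers were higher and 5 of 12 proximal tubule markers lower, beside 11.4% and 6.32% of all probe sets. These counts come from the fit without a block for wash run. In aTX against sTX 8 macrophage markers were higher and 1 was lower, beside 13.9% and 22.1% of all probe sets. In whole-kidney RNA, fewer cells of a type and less RNA per cell cannot be told apart, and the part of these shifts in the members' changes was not tested. The 3'/5' signal ratio of beta-actin, a sign of RNA integrity, was 1.74 ± 0.168 in ctr, 1.51 ± 0.0596 in sTX and 1.23 ± 0.0578 in aTX.

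**Figure D5:**
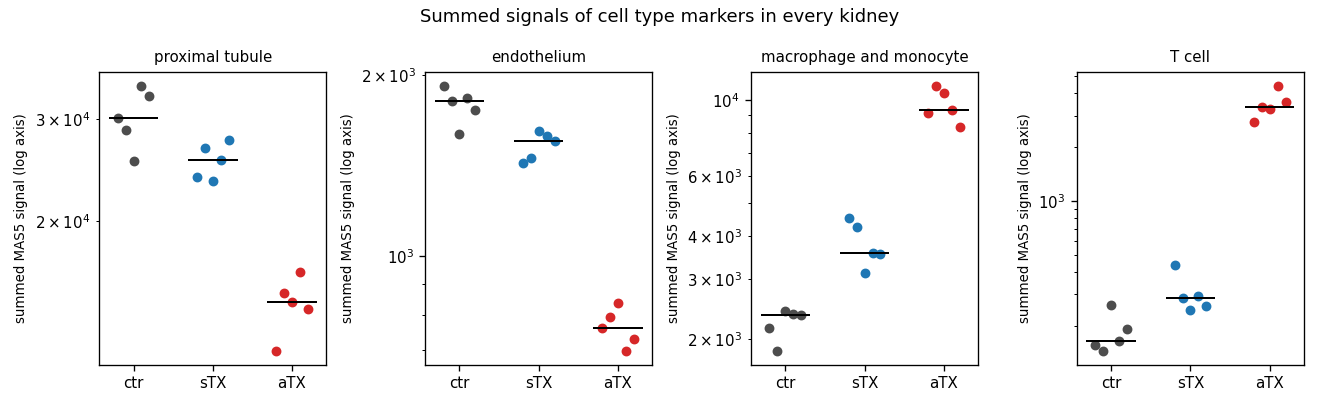
Summed MAS5 signal of the markers of 4 cell types in every kidney (log axis, a range of its own in each panel), with a bar at the median. The aTX kidneys lie below all others for proximal tubule and endothelium and above all others for macrophages and T cells.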

How the data were processed

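Total RNA of 15 whole rat kidneys was hybridized to Affymetrix Rat Genome 230 2.0 arrays, 1 per kidney. The authors deposited MAS5 signal intensities per probe set, computed with Affymetrix software and scaled per array. The methods describe scaling to a common mean, and here each array had a mean of 100 after trimming 2% of probe sets at either end. Of 31099 probe sets 57 Affymetrix controls were left out. Of the 31042 tested, 20826 carry 1 gene symbol, 436 several and 9780 none in the table of probe genes. 54 signals of 0 were set to 0.05. No 2 of the 15 arrays held identical values. Detection calls were not used here.

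Log2 signals were fitted with limma 3.58.1 in R 4.3.3 (lmFit, contrasts.fit, and eBayes with its trend option). A single fit covered all 15 arrays, and the Benjamini-Hochberg adjustment ran over the whole table. The scripts were tested on simulated data. Tables, promoter windows and plots used Python 3.11.15, pandas 2.3.3, numpy 2.4.6 and matplotlib 3.10.9. The members, pathway lists and cell markers were chosen with earlier results of these data known. All members are named. Of each pathway list, up to 4 genes are named, those called in aTX against ctr or sTX with the largest change in aTX against ctr among probe sets whose geometric mean reaches 100 in the higher group. Kidneys were not paired by their sample numbers, since the labels do not say that a number marks a shared donor. Of 15 same-numbered pairs 0 correlated above 0.1 after group means were removed (-0.02 to 0.03). These pairs include sTX with aTX, and the check cannot show which kidneys shared a donor. Wash runs come from each array's instrument record. Alternatives were other scalings, an offset of 16, a filter on dim probe sets, other tests, blocks for wash run and replicate number, and leaving out arrays.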

Additional observations from a re-analysis of the deposited data

Results flagged for a closer look

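Each of the 12 member probe sets was checked in each group for a lowest or highest kidney whose gap to its neighbour takes up most of the group's range. Of 36 such groups 7 were flagged, where chance flags about 1 in 20 groups. Control 3 accounts for 3 of them, with the lowest control signal of Asl on 1367754_s_at (628) and on 1368916_at (329) and the highest of Sat1 (1812). In the acute group, aTX 1 was lowest for Asl 1368916_at (320) and aTX 4 highest for Ddah1 (1281). In the syngeneic group, sTX 3 was lowest for the dim Gatm 1377784_at (4.4) and for Aoc1 (9).

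A signal outside the member probe sets was picked out as well. The probe set 1387667_at, listed under both Nos2-ps1 and Nos2, had a mean of 149 in aTX, against 4.88 ± 4.79 in ctr and 2.54 ± 2.68 in sTX.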

How the results depend on the processing

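No member's called change turned its direction under any alternative run. The counts of called members moved mainly in sTX against ctr, where the lower count of 3 became 6 with median centring and 1 with a block for wash run, with the methods' two-sample test after Benjamini-Hochberg adjustment and with that test at their unadjusted threshold of 0.001. The higher count of 1 became 0 with the block, at that threshold, and with a filter at a mean signal of 50, which drops Nos2, Aoc1 and Gatm 1377784_at. At that threshold 5 rather than 8 were lower in aTX against ctr. The wash run block rests on the 5 acute arrays that span both runs, since no run holds both other groups. Leaving out 1 array at a time gave 2 to 3 higher and 7 to 8 lower in aTX against ctr, 1 to 2 and 2 to 4 in sTX against ctr, and 3 to 3 and 4 to 6 in aTX against sTX. Of 540 single values in those fits, 509 stayed on their side of the threshold, 27 lost a call and 4 gained one, in Asl, Sat1, Arg1 and Gatm 1377784_at. With a replicate block 35 of 36 values stayed on their side, and Gatm 1377784_at became called in aTX against sTX (-1.52, adjusted p = 0.0334). Without both sTX arrays of conflicting label, 34 of 36 did so, while Asl 1367754_s_at lost its call in sTX against ctr (-0.42, adjusted p = 0.061) but not in aTX against sTX (-0.62, adjusted p = 0.00283), and Asl 1368916_at lost its call in aTX against sTX (-0.37, adjusted p = 0.145). The causes were not tested. Dim signals limit Nos2, Gatm 1377784_at and the control and syngeneic levels of Aoc1.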

Other observations

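Some pathway genes outside the naming rule were picked out after their values were seen. Their changes in sTX against ctr come from the fit without a block for wash run, and no run holds both groups. Cps1, which makes carbamoyl phosphate for the urea cycle, was higher after syngeneic transplantation and not in rejection. On 1384334_at it was 6.32 ± 2.61 in ctr, 36.6 ± 16.2 in sTX and 8.34 ± 2.76 in aTX (sTX against ctr, log2 change 2.49, adjusted p = 6.37e-05). On the dimmer 1370151_at the means were 4.6 ± 0.696, 13.7 ± 7.32 and 5.28 ± 2.15. Aoc3, the amine oxidase of vessel walls and fat, was 52.8 ± 7.59 in ctr, 90.9 ± 15.1 in sTX and 21.1 ± 4.54 in aTX on 1372615_at, higher in sTX (0.78, adjusted p = 0.00162) and lower in aTX (-1.33, adjusted p = 6.86e-07).

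Downstream of Odc1, the spermidine synthase Srm rose while Odc1 fell. It was 114 ± 12.3 in ctr, 158 ± 9.36 in sTX and 205 ± 5.57 in aTX (aTX against ctr 0.86, adjusted p = 1.24e-08). Amd1, which supplies the aminopropyl donor, fell from 496 ± 89.1 in ctr to 332 ± 16.7 in aTX (-0.56, adjusted p = 2.95e-05). Mtap, which recycles the by-product of spermidine and spermine synthesis, was 51.5 ± 5.48, 83.6 ± 12.7 and 131 ± 20.6 on 1397644_at (aTX against ctr 1.34, adjusted p = 2.92e-08), while its other 2 probe sets were dim or near the array median and were not called in that comparison. Eif5a, the protein that carries the spermidine-derived residue hypusine, rose from 1400 ± 68.6 to 1838 ± 45 in aTX (0.39, adjusted p = 2.52e-05), and Dhps, which makes that residue, from 116 ± 14.6 to 180 ± 16.3 (0.64, adjusted p = 7.25e-06). Dohh, which completes it, was 252 ± 25 in ctr, 207 ± 27.1 in sTX (-0.28, adjusted p = 0.0324) and 225 ± 8.73 in aTX (-0.15, adjusted p = 0.182). Eif5a2, the relative of Eif5a, was lower in aTX on 1393063_at (-0.59, adjusted p = 0.0219) and not called on 1383867_at (0.15, adjusted p = 0.465).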
